A study of Homo sapiens with 12 samples.

Results

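A small class of acetylated sites stayed narrow in every library of this series: 1661 of the 117312 regions (1.42%) obtained by merging the peaks of 9 H3K27ac lists. A member was a merged region on chromosomes 1 to 22 that a peak of each of the 9 lists overlapped and that was less than 3000 bp wide, where overlapping or touching peaks had been joined. Regions that all 9 lists held, whatever their width, are called constant regions here. There were 33053 of them, of which the members made up 5.03%, and the other 31392 are called wider constant regions. The members were selected on position, on presence in all lists and on merged width, so these values are given as a description and carry no test.

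The libraries came from MDA-MB-231, an established line of human breast cancer cells. Cells received lentivirus labelled EV-control (the Control group), an shRNA against CDK19 (CDK19KD) or an shRNA against CDK8 (CDK8KD), and were grown for 96 h. Unfixed chromatin was digested with enzyme and precipitated with an antibody against H3K27ac, and each group had 3 libraries. All groups share the cell line, the viral infection and the antibody. How many shRNAs were used per gene is not given in the sources used here, the level of the kinases was not measured in these files, and the Input libraries were not analysed here.

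H3K27ac is acetylation of lysine 27 of histone H3, placed by the acetyltransferases p300 and CBP at active promoters and enhancers. Broad stretches of the mark are known from highly active promoters and clustered enhancers, while short stretches are typical of single regulatory elements. CDK8 and CDK19 are related kinases that bind cyclin C in the kinase module of Mediator, the complex that links enhancer-bound factors to RNA polymerase II. The comparisons ask whether lowering either kinase alters where H3K27ac is found. The peak lists are on hg19. No genome or gene annotation of that build was used here, so members are named by position, and no gene, promoter class or DNA sequence is given for them.

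The lists held from 60958 to 85366 peaks on chromosomes 1 to 22, and at most 4 peaks had identical coordinates in any pair of lists. No file gives read depth, and counting error could therefore not be attached to peak values. Control replicate 3 stood apart in the narrow regions, and the main group comparisons that rest on it are given with and without it. Values after centring of each library, and descriptions of how peak outlines vary or agree between lists, are given with it only. Nothing in the labels says whether libraries of a group came from separate cultures, so their spread may be technical in part.

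Narrow regions were seldom shared. Of the 72661 merged regions under 3000 bp, 61.7% were held by a single list and 2.29% by all 9. Among the 44651 regions of 3000 bp or more, 1.06% were held by a single list and 70.3% by all 9. The number of narrow regions fell with each further list, from 44797 held by 1 list to 1163 held by 8, and then stood at 1661 for all 9. Width and sharing are linked by the merging itself, since each further list can only widen a region.

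**Figure D1:**
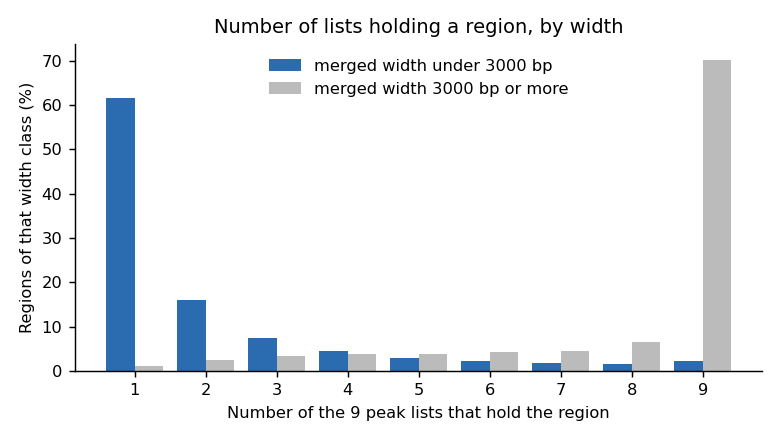
Percentage of merged regions (y axis) held by 1 to 9 of the peak lists (x axis), for regions under 3000 bp (blue, 72661 regions) and regions of 3000 bp or more (grey, 44651 regions). The narrow class peaks at a single list, with 61.7%, and the wide class at all 9, with 70.3%.

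The 1163 narrow regions that missed membership by a single list were unevenly spread over the libraries. Control replicate 3 was the list without a peak at 414 of them (35.6%), followed by CDK19KD replicate 2 at 182 (15.6%) and Control replicate 2 at 147 (12.6%). CDK19KD replicate 1 was the missing list at 39 (3.35%). The set of members was therefore limited most often by Control replicate 3. Without that list, 2166 narrow regions were held by all the others, and every one of the 1661 members overlapped one of them.

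Most members lay close to the upper limit of width. The median width was 2537 bp, 54.4% measured 2500 bp or more, and 55 members were under 1500 bp. Together they spanned 4.09 Mb, which is 1.12% of the 366 Mb in constant regions. The limit of 3000 bp did not fall in a gap. The widest members were 3 regions of 2999 bp, on chromosomes 5 (from 83073484), 11 (from 10746048) and 17 (from 18526783). The narrowest regions beyond the limit were 4 of 3001 bp. The 210 members of 2900 bp or more had a median strength percentile of 50.6, and the 247 regions from 3000 to under 3100 bp had 52.0. Strength here is the percentile of a region's strongest peak within its own list by the deposited −log10 p, averaged over the 9 lists.

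The narrowest member lay on chromosome 19 from 44974536 to 44975232 and was 697 bp wide. Its peaks covered 587, 444 and 331 bp in Control (replicates 1, 2 and 3), 616, 546 and 573 bp in CDK19KD, and 603, 569 and 345 bp in CDK8KD. The shortest peaks were those of Control replicate 3 and CDK8KD replicate 3, and the 3 groups overlapped. It was not a weak site, with a mean percentile of 77.4 and a deposited fold enrichment from 3.45 to 5.10.

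A second site of chromosome 19, from 58011464 to 58012168, was 705 bp wide. Covered lengths were 476, 438 and 394 bp in Control, 381, 315 and 635 bp in CDK19KD, and 419, 616 and 476 bp in CDK8KD, again with overlap of all groups. The next narrowest, on chromosome 8 from 7211882 to 7212830, was 949 bp wide and weaker, with a mean percentile of 44.6. Chromosome 19 held 5 of the 55 members under 1500 bp (9.09%) and 57 of all 1661 members (3.43%).

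Members were peaks of middle strength. Their mean percentile had a median of 49.7 (quartiles 41.3 and 59.3), against 75.3 (quartiles 59.7 and 87.7) in wider constant regions. Inside the class, strength hardly varied with width. The median percentile was 49.7 under 1500 bp, 50.4 from 1500 to under 2000 bp, 49.1 from 2000 to under 2500 bp and 50.1 from there to the limit. Beyond the limit it climbed to 54.3 at widths under 4000 bp and to 86.0 at 10000 bp or more. Across the 1661 members Spearman's rho between width and strength was 0.061, and across all 33053 constant regions it was 0.573. Both are descriptions over regions of the same 9 libraries, and a region of several peaks is scored by its strongest. The rule confines members to widths under 3000 bp. A short range of widths can itself lower rho, so these values are not directly comparable.

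**Figure D2:**
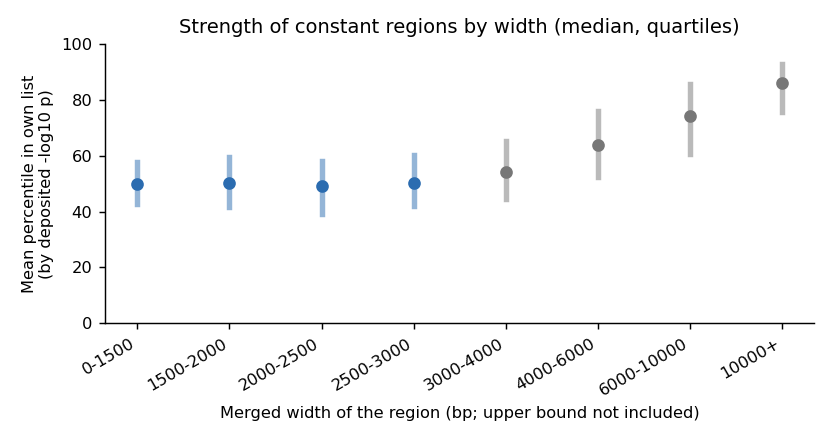
Strength of constant regions (y axis, percentile of the strongest peak in its own list by deposited −log10 p, mean of 9 lists) in 8 classes of merged width (x axis, bp). Points are medians and bars run from the lower to the upper quartile; the 4 blue classes are members and sit near 50, while the grey classes climb to 86.0.

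The deposited fold enrichment of members had a median between 2.59 (Control replicate 3) and 3.06 (CDK19KD replicate 3) in the 9 lists, against 3.52 to 4.50 for wider constant regions. A −log10 q of at least 5, a stricter threshold, was reached in all 9 lists by 25 members (1.51%) and in at least 1 list by 921 (55.4%). For wider constant regions these shares were 32.8% and 87.0%. By library, the share of members that reached it ran from 4.64% in CDK19KD replicate 2 and 5.12% in Control replicate 2 to 39.1% in CDK19KD replicate 3. These shares follow the calling of each list and do not compare acetylation between groups.

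A minority of members were strong. In 81 (4.88%) the mean percentile was 75 or more, and in 25 (1.51%) it was under 25. The strong members were spread over 21 chromosomes, with 12 on chromosome 1 and 7 each on chromosomes 3, 6 and 16. They were cleaner in outline than the rest. Their covered length varied over the libraries with a median coefficient of variation (CV) of 24.1%, against 34.7% for all members, and a stretch common to all 9 lists was present in every one of them.

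The strongest member lay on chromosome 1 from 148175945 to 148178588 and was 2644 bp wide. Peaks covered 2411, 2546 and 1770 bp of it in Control, 2547, 1905 and 1901 bp in CDK19KD, and 2617, 2389 and 1734 bp in CDK8KD. The deposited fold enrichment was 6.33, 4.68 and 5.67 in Control, 7.12, 5.90 and 7.999 in CDK19KD, and 5.46, 5.58 and 5.62 in CDK8KD. It ranked between the 90.9th and the 98.8th percentile of each list. Replicate 3 was shortest in every group, and the groups overlapped. The log2 difference in covered length was −0.08 ± 0.29 (SE) for CDK19KD against Control, with a limma adjusted p of 0.95.

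The other strong members named by rank were on chromosome 16 from 31724169 to 31726569, on chromosome 3 from 44595193 to 44598141, on chromosome 11 from 4413021 to 4415264, on chromosome 20 from 18774122 to 18776562, and on chromosome 3 from 146341509 to 146344440. Their mean percentiles were 93.0, 92.9, 92.8, 92.8 and 88.3. The sites on chromosomes 11 and 20 stood far from other constant regions, at 204 and 202 kb from the nearest one. The chromosome 16 site was 10.6 kb from another member, 2108 bp wide. In none of these sites was the covered length different between groups by the limma test.

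The weakest member lay on chromosome 20 from 50720680 to 50722204, with a mean percentile of 15.7. Its deposited −log10 p was 2.58, 2.04 and 2.34 in Control, 2.86, 2.35 and 2.66 in CDK19KD, and 2.31, 2.62 and 3.10 in CDK8KD, which placed it between the 0.0577th and the 35.7th percentile of the lists. Covered lengths ran from 424 to 1483 bp, and no base was covered in all 9 lists. The next weakest were on chromosome 9 from 108042367 to 108044985 and on chromosome 15 from 62910027 to 62912503, with mean percentiles of 20.2 and 20.9.

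Each member was usually 1 peak per list. In 1618 of the 1661 members (97.4%) every list had exactly 1 peak, against 43.2% of wider constant regions. A stretch common to all 9 lists existed in 1516 members (91.3%), with a median length of 546 bp (quartiles 298 and 902 bp). It was measured between the outer edges of each list's peaks, so gaps between several peaks of a list count as covered. Counting members without such a stretch as 0, the common stretch took a median of 20.9% of the merged width, against 44.6% in wider constant regions. Peaks of the 9 lists were centred on the same place within a median SD of 201 bp, and their starts and ends had median SDs of 313 and 294 bp. The rule bounds these values, because edges that disagree more widen the merged region past the limit.

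The remaining 145 members (8.73%) had no base in common to all lists. They were weaker, with a median percentile of 34.6, and their covered length varied more, with a median CV of 48.0%. Agreement of outline rose with strength. With members ranked by strength and divided into 4 sets, the weakest 416 had a median CV of 42.4% and lacked a common stretch in 26.7% of cases. The strongest 415 had a median CV of 25.8% and a median common stretch of 874 bp, and each of them had one. Across members Spearman's rho between strength and CV was −0.44.

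Outlines that hardly moved were rare, with a CV under 10% in 8 members. The steadiest lay on chromosome 17 from 41399542 to 41401378 and was 1837 bp wide. Its peaks covered 1616, 1633 and 1752 bp in Control, 1781, 1798 and 1766 bp in CDK19KD, and 1733, 1749 and 1750 bp in CDK8KD, a CV of 3.66%. This site combined a high mean percentile of 88.3 with a low deposited fold enrichment, from 2.21 to 3.42. Of the 81 strong members it was the only 1 with a median fold below 2.82, the median of all members. The next steadiest were on chromosome 2 from 131112245 to 131115018 and on chromosome 11 from 82827235 to 82829548, with CVs of 6.52% and 7.53%.

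The CV exceeded 60% in 93 members. The highest, 90.8%, was on chromosome 13 from 101869784 to 101871958. There Control peaks covered 324, 385 and 286 bp, CDK19KD peaks 2127, 449 and 463 bp, and CDK8KD peaks 491, 1696 and 465 bp. CDK19KD replicate 1 and CDK8KD replicate 2 were long and the other 7 libraries short, and neither knockdown differed from Control by the limma test (adjusted p = 0.66 and 0.58). The next most variable were on chromosome 1 from 144499459 to 144501798 and on chromosome 2 from 174507308 to 174509990, with CVs of 88.8% and 84.2%.

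Members stood further apart from other constant regions than wider ones did. The nearest constant region was at a median of 16.4 kb (quartiles 7.07 and 39.0 kb), against 9.67 kb (quartiles 3.41 and 23.6 kb) for wider constant regions. Within 5 kb, 19.1% of members and 33.0% of wider constant regions had such a neighbour. More than 100 kb away from any other constant region were 131 members (7.89%) and 3.65% of wider regions. A wide region also occupies more of its surroundings, and how much that adds to this contrast was not tested. Isolated members were not weak, with a median percentile of 54.9, whereas the 318 members within 5 kb of a constant region had 46.4.

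A member's nearest constant neighbour was itself narrow in 10.0% of cases, against 4.30% for wider constant regions. Still, 1547 members had no other member within 20 kb. Groups of 2 members within 20 kb of each other numbered 49 and groups of 3 numbered 4. A single group of 4 lay on chromosome 5 between 140556999 and 140580387, with widths of 1236, 2285, 2116 and 1936 bp.

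The members of this chromosome 5 group had mean percentiles from 49.99 to 59.9. In the member starting at 140556999, covered lengths were 1184, 388 and 315 bp in Control, 1233, 250 and 787 bp in CDK19KD, and 975, 529 and 388 bp in CDK8KD. Replicate 1 was the longest of each group there, so the replicate number rather than the group separated long from short peaks. The member starting at 140578452 had 1448, 990 and 1017 bp in Control, 1775, 666 and 778 bp in CDK19KD, and 1851, 1227 and 1094 bp in CDK8KD, again with replicate 1 above the others of its group. Replicate 1 was the longest of every group in 3 of the 4 members, the exception being the one starting at 140570979.

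Narrow regions formed a small part of the constant regions on each chromosome, and the share varied about its overall value of 5.03%. It was lowest on chromosome 20, with 21 of 728 (2.88%, 95% Wilson interval 1.89 to 4.37%), and highest on chromosome 15, with 77 of 1113 (6.92%, interval 5.57 to 8.56%). These were the only intervals that did not contain 5.03%. The intervals treat regions as independent and cover counting error only. Constant regions were widest in the median on chromosome 20 (8742 bp) and narrowest on chromosome 15 (6394 bp), so the share moved with the width of constant regions there. The members of chromosome 19 had the highest median percentile of any chromosome, 56.1, and those of chromosome 21 the lowest, 45.1.

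**Figure D3:**
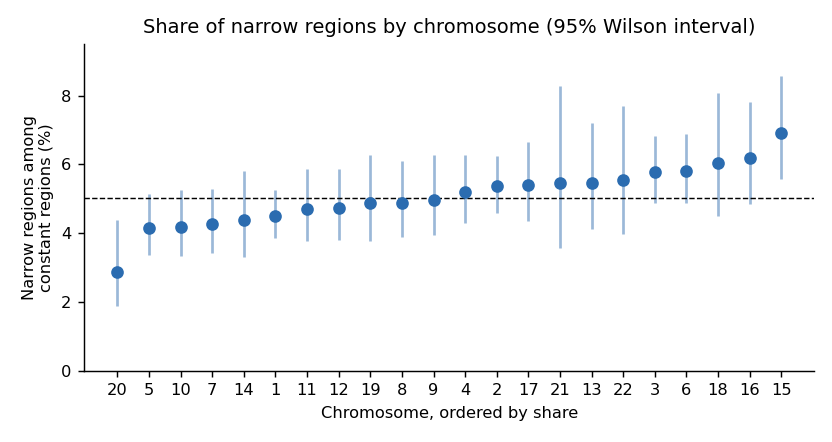
Percentage of constant regions that were narrow (y axis) on each of chromosomes 1 to 22 (x axis, ordered by that percentage), with 95% Wilson intervals as bars and the value for all chromosomes, 5.03%, as a dashed line. The intervals of chromosome 20 (below) and chromosome 15 (above) do not reach the line.

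All 9 lists held every member by definition, so a knockdown can show itself in them as a longer or shorter peak and not as gain or loss. The measure is the covered length, the number of bp of the merged region under a library's peaks. The median covered length of the 1661 members was 1615, 1503 and 1079 bp in Control, 1724, 1306 and 1498 bp in CDK19KD, and 1728, 1560 and 1474 bp in CDK8KD. Replicate 1 was longest in each group, and Control replicate 3 was by far the shortest library. As a share of the merged region the medians were 67.6, 63.2 and 44.9% in Control, 71.2, 55.9 and 62.3% in CDK19KD, and 72.3, 65.2 and 61.1% in CDK8KD.

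The group means of these medians were 58.6% ± 12.1 (SD, n = 3) for the Control lists and 63.2% ± 7.67 (SD, n = 3) for the CDK19KD lists. For the CDK8KD lists the mean was 66.2% ± 5.64 (SD, n = 3). The ranges of all groups overlapped, and the means differed by less than the SD of Control. Without Control replicate 3 the Control mean was 65.4%, between those of the knockdowns. Control replicate 3 covered less than every other library in 534 members (32.1%), and in the median member its covered length was 0.723 of the median of the other 8. In wider constant regions it did not stand out, with a median share of 65.6% beside 65.4% in Control replicate 1 and 71.6% in Control replicate 2. What made this library short in the narrow regions was not tested.

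**Figure D4:**
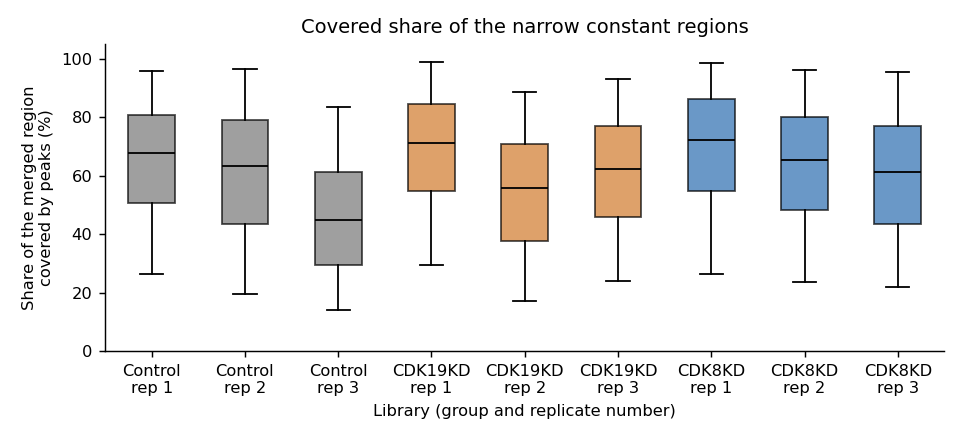
Share of each narrow constant region covered by the peaks of a library (y axis, %), for the 9 libraries (x axis; grey Control, orange CDK19KD, blue CDK8KD). Boxes show the median and quartiles of 1661 regions and whiskers the 5th to 95th percentile; the median of Control replicate 3, at 44.9%, is the lowest.

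Libraries resembled each other in the narrow regions by replicate number as much as by group. For each pair of libraries the overlap of both peaks was divided by the length spanned by either, and the median over members was taken. The mean of these medians was 0.648 over the 9 pairs of the same group, 0.666 over the 9 pairs of the same replicate number and 0.624 over the 18 other pairs. The most alike were Control replicate 1 and CDK19KD replicate 1, at 0.734, and the least alike Control replicate 3 and CDK8KD replicate 1, at 0.545. Spearman's rho of the covered share across the 1661 members was weak in every kind of pair, with means of 0.218, 0.212 and 0.056 in the same order, and pairs share the same regions and merged widths. Percentiles of strength were better preserved, with mean rho of 0.525, 0.563 and 0.434.

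Differences in covered length between groups were tested with limma over all 33053 constant regions together, with Benjamini-Hochberg adjustment. The rule bounds the covered length of members by the width limit, and that of wider constant regions it does not. Shares of members and of all constant regions are therefore given side by side in each comparison as a description only. Libraries were not paired by replicate number in this fit. A block for that number called more constant regions in every comparison, with counts given in the closing section. For CDK19KD against Control, 0 members were longer and 0 shorter at an adjusted p under 0.05, and the share called among all constant regions was also 0% in both directions. At an unadjusted p under 0.05, 62 members (3.73%) were longer and 20 (1.2%) shorter, against 1466 (4.44%) and 2022 (6.12%) of all constant regions. At the same p with no trend in the limma fit, 6.86% of members and 4.61% of all constant regions were longer, and 3.19% and 5.79% shorter. On the scale of covered share these were 8.31% and 4.73% longer, and 3.97% and 4.98% shorter. How members compared with all constant regions therefore depended on the fit. In the main fit without Control replicate 3, 45 members (2.71%) were longer and 32 (1.93%) shorter, against 4.4% and 6.3% of all constant regions. Leaving out any 1 of the 9 libraries gave 30 (without CDK19KD replicate 1 or 3) to 99 (without Control replicate 1) members longer. It gave 12 (without Control replicate 2) to 32 members shorter. The shares were 1.81 to 5.96% and 0.722 to 1.93% of members, against 3.01 to 5.25% and 3.63 to 8.7% of all constant regions. The smallest adjusted p of a member was 0.157. The median log2 difference was 0.13 over the members and −0.05 over all constant regions. The positive value over members rested on Control replicate 3, since without it the median was −0.04.

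On chromosome 13, the member from 44259334 to 44262094 had the smallest p for a longer peak in CDK19KD and spanned 2761 bp. Its peaks covered 413, 372 and 519 bp in Control, 2689, 2129 and 2196 bp in CDK19KD, and 1357, 740 and 914 bp in CDK8KD. The 3 groups did not overlap, with CDK19KD longest, CDK8KD between and Control shortest. The log2 difference of CDK19KD to Control was 2.43 ± 0.43 (SE), which did not pass adjustment (limma adjusted p = 0.157).

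In the opposite direction the smallest p belonged to a member on chromosome 4 from 84435747 to 84438674, 2928 bp wide. Covered lengths were 2804, 2305 and 1417 bp in Control, 605, 818 and 250 bp in CDK19KD, and 2170, 1849 and 1430 bp in CDK8KD. Every CDK19KD library lay below all other libraries, while Control and CDK8KD overlapped. The log2 difference to Control was −2.07 ± 0.52 (SE) with a limma adjusted p of 0.246.

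For CDK8KD against Control, 1 member was longer and 0 were shorter at an adjusted p under 0.05, where 0.626% of all constant regions were called longer (207) and 0.0756% shorter (25). At an unadjusted p under 0.05, 76 members were longer and 14 shorter, 4.58% and 0.843% of the members, against 11.8% and 3.42% of all constant regions. Most of this gap depended on the fit. At the same p with no trend in the limma fit, 10.1% of members and 11.8% of all constant regions were longer, and 1.87% and 3.26% shorter. On the scale of covered share these were 11.7% and 13.2% longer, and 2.41% and 2.95% shorter. In the main fit without Control replicate 3, 59 members (3.55%) were longer and 25 (1.51%) shorter, against 12.5% and 4.11% of all constant regions. Leaving out any 1 of the 9 libraries gave 39 (without CDK8KD replicate 3) to 121 (without Control replicate 1) members longer. It gave 7 (without Control replicate 2) to 25 members shorter. The shares were 2.35 to 7.28% and 0.421 to 1.51% of members, against 8.3 to 12.5% and 1.67 to 5.4% of all constant regions. The median log2 difference was 0.18 over the members and 0.10 over all constant regions. Without Control replicate 3 it was 0.0049 over the members. The counts over all constant regions at an adjusted p under 0.05 changed with the library left out. They were 0 and 0 without Control replicate 2, CDK8KD replicate 2, CDK8KD replicate 3 or CDK19KD replicate 1. They were 4 and 1 without CDK8KD replicate 1, 5 and 3 without CDK19KD replicate 2, 101 and 10 without CDK19KD replicate 3, 142 and 28 without Control replicate 1, and 228 and 11 without Control replicate 3. CDK19KD libraries enter this comparison through the shared estimate of the spread. Without CDK19KD replicate 1 the median log2 difference over all constant regions stayed at 0.10. At an unadjusted limma p under 0.05, 3654 constant regions were then longer, against 3910 with that library. Leaving out any library also leaves fewer to estimate the spread. How much that adds to the fall in counts was not tested.

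The called member lay on chromosome 18 from 33105638 to 33108330, 2693 bp wide. Its peaks covered 510, 566 and 322 bp in Control, 1588, 1761 and 1384 bp in CDK19KD, and 2116, 2693 and 1901 bp in CDK8KD. All Control libraries were short, all CDK8KD libraries long, and CDK19KD lay between without overlap. The log2 difference of CDK8KD to Control was 2.29 ± 0.40 (SE) with a limma adjusted p of 0.0407, and that of CDK19KD to Control was 1.79 ± 0.40 (SE) with an adjusted p of 0.214. It was a weak site with a mean percentile of 28.9 and no base common to all 9 lists. The call was lost with any 1 of the 9 libraries left out, with an adjusted p from 0.0541 to 0.169 over the 6 Control and CDK8KD libraries. It was also lost when libraries were centred on their medians (adjusted p = 0.0697) or when the covered share took the place of log2 length (adjusted p = 0.0673). The call was kept with the widest peak in place of covered length (limma adjusted p = 0.041) and with a minimum mean share of 50% (0.0402). It was also kept without the trend and with a block for replicate number.

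On chromosome 10, the member from 32010822 to 32013566 had the smallest p for a shorter peak in CDK8KD and spanned 2745 bp. Covered lengths were 2294, 2243 and 2418 bp in Control, 2318, 1534 and 2592 bp in CDK19KD, and 907, 1055 and 829 bp in CDK8KD. Each CDK8KD library was shorter than every library of the other groups, which overlapped each other. The log2 difference was −1.32 ± 0.31 (SE) against Control, which did not pass adjustment (limma adjusted p = 0.0929). This member also had the smallest p for CDK19KD longer than CDK8KD, at 1.18 ± 0.31 (SE) and a limma adjusted p of 0.124.

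Between the knockdowns, 0 members were called in either direction by limma, where CDK19KD was longer than CDK8KD in 0.0726% of all constant regions (24) and shorter in 0.56% (185). At an unadjusted p under 0.05, 30 members (1.81%) were longer and 50 (3.01%) shorter in CDK19KD, against 863 (2.61%) and 4294 (13.0%) of all constant regions. At the same p with no trend in the limma fit, 3.97% of members and 2.64% of all constant regions were longer, and 6.44% and 12.4% shorter. On the scale of covered share these were 5% and 3.07% longer, and 8.43% and 13.7% shorter. In the main fit, leaving out any 1 of the 9 libraries gave 8 (without CDK19KD replicate 1) to 38 (without CDK8KD replicate 1) members longer. It gave 21 (without CDK8KD replicate 3) to 64 (without Control replicate 3) members shorter. The shares were 0.482 to 2.29% and 1.26 to 3.85% of members, against 1.59 to 3.59% and 8.79 to 14.9% of all constant regions. The median log2 difference was −0.05 over members and −0.15 over all constant regions. The member median was 0.05 without CDK19KD replicate 2 and 0.0065 without CDK8KD replicate 1. With any 1 of the 6 knockdown libraries left out, at most 6 constant regions were called shorter and 0 longer. Without Control replicate 1, 2 or 3 the counts shorter were 65, 46 and 288, and the counts longer 9, 10 and 39. The smallest p for CDK19KD shorter was that of a member on chromosome 13 from 27515025 to 27517401. Its peaks covered 811, 598 and 434 bp in CDK19KD, 1584, 1779 and 1877 bp in CDK8KD, and 1694, 1650 and 1429 bp in Control. All CDK19KD libraries were shorter than the rest, with a log2 difference to CDK8KD of −1.55 ± 0.38 (SE) and a limma adjusted p of 0.107.

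**Figure D5:**
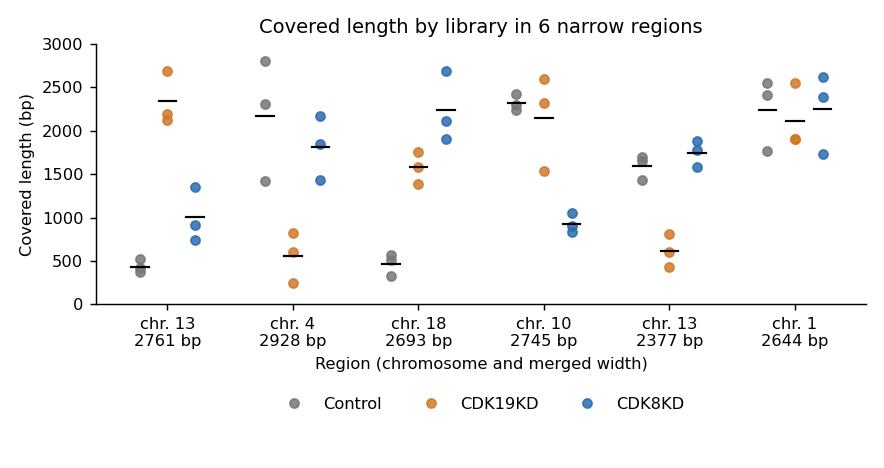
Covered length (y axis, bp) in each library for the 5 narrow regions with the smallest p of a comparison and direction and, at the right, the strongest member (x axis, chromosome and merged width). Points are libraries and black lines group means; in the chromosome 18 region Control lies at 322 to 566 bp and CDK8KD at 1901 to 2693 bp, while in the chromosome 1 region the groups overlap.

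Centring each library on its median over all constant regions removed the general difference in length between lists. It moved the median log2 difference of all constant regions from −0.05 to 0.02 for CDK19KD against Control, from 0.10 to −0.01 for CDK8KD against Control and from −0.15 to 0.03 between the knockdowns. Over the members the centred medians were 0.20, 0.08 and 0.13 in the same order. The sign of the member median between the knockdowns therefore changed with the scaling, from −0.05 to 0.13. The centred member medians against Control, 0.20 and 0.08, include Control replicate 3 and are not given without it. Before centring, leaving out that library moved the member median from 0.13 to −0.04 for CDK19KD and from 0.18 to 0.0049 for CDK8KD. Whether the centred medians against Control rest on Control replicate 3 in the same way was not tested.

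Members whose covered lengths did not overlap between groups were counted as well. The width limit bounds covered length here too, so the shares of members and of all constant regions are not directly comparable. CDK19KD was longer than Control in all pairings of libraries in 159 members (9.57%), against 6.95% of all constant regions, and shorter in 63 (3.79%), against 8.42%. CDK8KD was longer than Control in 192 (11.6%), against 15.8%, and shorter in 41 (2.47%), against 4.31%. Both comparisons use the same Control libraries. Without Control replicate 3, the counts shorter than Control rose to 222 for CDK19KD and 180 for CDK8KD, and the counts longer were 191 and 236, where fewer libraries have to be separated. Over all constant regions the shares shorter were then 18.0% and 11.4%, and the shares longer 11.2% and 23.5%. CDK19KD was longer than CDK8KD in 100 members (6.02%), against 4.52% of all constant regions, and shorter in 164 (9.87%), against 19.7%.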

How the data were processed

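H3K27ac ChIP-seq of 9 libraries was used, 3 per group, grouped by the sample titles. Per the submitters' processing notes the build is hg19 and MACS2 and deepTools were used; settings, versions, control library and aligner are not given in the sources used here. The authors deposited 1 broad peak list per library. It holds coordinates, a fold enrichment (a linear ratio), the −log10 p, the −log10 q, and a deposited score that the peak caller derives from the −log10 q and was not used. These deposited values were used to describe and rank peaks within their own list, and no test compares them between lists. No file gives read depth.

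Peaks on chromosomes 1 to 22 were merged, and an overlap of 1 bp counted as holding a region. Positions count from 1. Covered length per region and library was taken as log2 and fitted with limma 3.58.1 in R 4.3.3 (all 9 libraries, eBayes with a trend, Benjamini-Hochberg over 33053 regions, threshold 0.05); peak lists hold no counts, so no count model was used. The script was tested on simulated data. Named regions are the 6 strongest, the 3 weakest, narrowest, steadiest and most variable members, those nearest the width limit, the largest group of neighbours, and for each comparison and direction the called members or the 1 with the smallest p. The members and these rules were chosen with earlier results of these data known. Planned motifs, gene lists and sequences were not analysed here for want of an hg19 genome. Other settings tried were a stricter q (−log10 q from 5 up), each list cut to 20000 peaks, 50% coverage, other widths, joining within 500 bp, another scale, centring, no trend, widest peak, a minimum share, a block for replicate number, and each library omitted in turn.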

Additional observations from a re-analysis of the deposited data

Results flagged for a closer look

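Narrow constant regions also occurred on sequences that the report does not use. Chromosome X had 67 of them among 994 constant regions (6.74%). Alternate haplotype, Y and unplaced sequences had 99, of which 91 lay on haplotype sequences, 2 on chromosome Y and 6 on unplaced sequences. They were flagged because a signal appeared in data outside the main measurement, and libraries without precipitation were not analysed here.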

How the results depend on the processing

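The number of narrow constant regions was 25 at the stricter q (−log10 q from 5 up), 30 when each list was cut to its 20000 strongest peaks, 218 with 50% coverage in every list, 226 under 2000 bp and 4515 under 4000 bp, and 1821 to 2166 with 1 list left out. At that stricter q the median covered share was 0% in each group, since from 77 to 650 of the 1661 members held such a peak in a list; among those that did, the medians were 51.2 to 80.7%; leaving out a library gave 54.0 to 65.4% in Control, 59.1 to 66.8% in CDK19KD and 63.2 to 68.7% in CDK8KD. Groups that did not overlap, with Control replicate 3 left out (chosen after the data had been seen), gave 222 and 180 shorter members and 191 and 236 longer ones. Same-numbered libraries correlated in their deviations from group means at 0.0823 to 0.518, with a mean of 0.353 over 9 pairs. The 18 pairs of other numbers had a mean of −0.177. Deviations from a group mean cancel out within the group, so this negative mean largely follows from the positive one and adds no separate contrast. The pair of Control replicate 2 and CDK8KD replicate 2, at 0.0823, was the only same-numbered pair not above the preset 0.1. Because of that pair the numbers were not treated as pairing the samples. The higher correlation by number remains a limit of the unpaired fit. With the replicate block, called regions were 16 longer and 11 shorter (CDK19KD against Control, 0 and 0 without it), 1287 and 237 (CDK8KD against Control, 207 and 25), and 206 and 1366 (CDK19KD against CDK8KD, 24 and 185); called members were 2 for CDK8KD longer and 1 for CDK19KD shorter than CDK8KD. On the scale of covered share the counts were 1, 0, 0, 0, 0 and 0, with 0 members. For CDK8KD against Control they were 29 and 11 when centred (0 members) and 63 and 9 without a trend (2 members). They were 219 and 17 with the widest peak (1 member) and 126 and 13 with a minimum share of 50% (1 member). With a −log10 q of at least 5 they were 12 and 1 (0 members). Between the knockdowns they were 13 and 9 when centred, 12 and 36 without a trend, and 3 and 23 with a −log10 q of at least 5. Leaving out 1 library of the groups compared gave 0 to 228 longer and 0 to 28 shorter for CDK8KD against Control, 0 longer and 0 to 6 shorter between the knockdowns, and 0 called members throughout; the counts fell to 0 and 0 for CDK8KD against Control without Control replicate 2, CDK8KD replicate 2 or CDK8KD replicate 3, and also without CDK19KD replicate 1, which is in neither group. They were 5 and 3 without CDK19KD replicate 2. Between the knockdowns they were 9 and 65, 10 and 46, and 39 and 288 without Control replicate 1, 2 and 3. Single regions were not refitted at the stricter q. The log2 difference of the chromosome 18 member starting at 33105638 stayed between 2.04 and 2.45 with a library left out. The cause of these changes was not tested. Of 297 alternative values, 221 were labelled unchanged, 68 moved and 8 lost the threshold. Counts were labelled unchanged when equal, often 0 against 0, or within a fixed factor of each other. Medians were mostly judged by the spread between libraries (SD 0.224 for log2 differences), so a change of sign could pass as unchanged. This happened for CDK19KD against Control without Control replicate 3 (0.13 to −0.04) and for the centred knockdown comparison (−0.05 to 0.13). It also happened between the knockdowns without CDK19KD replicate 2 (−0.05 to 0.05) and without CDK8KD replicate 1 (−0.05 to 0.0065). The 221 therefore do not measure how stable the results were. Unknown read depth limits every comparison between lists.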
